A study of Mus musculus and Canis lupus familiaris with 12 samples.

Results

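The translation factors described here are the proteins that start, extend and end protein synthesis on the ribosome. They were chosen by gene symbol, with earlier results of these data known. A row was taken where its symbol began with EIF1 to EIF6, EEF1 or EEF2, or was PABPC1, PABPC4, ETF1, GSPT1 or ABCE1. The EIF2AK and EEF2K kinases, 6 rows in mouse and 5 in dog, were left out, as were 14 mouse pseudogenes. This gave 87 of 78317 rows of the mouse table and 56 of 30424 rows of the dog table, and 54 symbols stood in both. In mouse, 18 of the 87 rows matched by name without a known translation role, most of them numbered copies of Eif1ad.

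The study asked how omacetaxine (OMX), an inhibitor of protein synthesis with effects on c-Myc, acts on osteosarcoma, a bone cancer. Wild-type DLM8 cells (mouse) and Gracie cells (dog) were each given medium with 50 nM OMX for 6 h or were left untreated, with 3 libraries in each of the 4 groups and 12 in all. The label of the reference groups is untreated, while the treatment protocol names a DMSO control. Each species was represented by 1 cell line, and no label says whether the 3 libraries of a group are separate cultures. The p-values below then reflect only how far those libraries differ among themselves, part or all of which could be technical.

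Translation begins when the small ribosomal subunit, held by eIF3 and loaded with initiator tRNA by eIF2, is brought to the mRNA cap by eIF4E, eIF4G and the eIF4A helicase. After the start codon is found and the large subunit has joined, eEF1A delivers aminoacyl-tRNA, eEF2 moves the ribosome along, and eRF1 and eRF3 release the finished chain. Omacetaxine binds in the peptidyl transferase centre of the ribosome and blocks the first steps of elongation. Many mRNAs of the translation machinery carry an oligopyrimidine tract at their start (TOP mRNAs) and are controlled together through mTORC1 and the RNA-binding protein LARP1.

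The DLM8 libraries held 9099313 to 11392715 counts and the Gracie libraries 2385102 to 3381831. Genes with exons that face a member on the other DNA strand were looked up for mouse only, because the mt-Nd6 row, the mitochondrial coding gene on the light strand, held 49.9 to 94.1 times the median count of the other 12 mitochondrial coding rows of the same DLM8 library. The strand setting of the counting is not given in the sources used here. A row's level or fold change is therefore not read as that of its mRNA. Below, a gene called lower or higher stands for its row. Levels are not compared between genes. In Gracie, the 2 largest rows of each library took 13.3% to 17.4% of its counts in OMX libraries and 4.17% to 4.44% in untreated libraries. Osteoblast markers summed to 662 to 992 CPM (counts scaled to a common library total) in OMX and 1741 to 2268 CPM in untreated DLM8 libraries, and to 69.7 to 73.3 CPM in OMX and 45.0 to 97.8 CPM in untreated Gracie libraries, where ALPL, IBSP and SPP1 were at or near 0. Of the leukocyte markers, PTPRC and CD3E were at or near 0 in both lines. In DLM8, Csf1r had 122 to 208 CPM in OMX and 118 to 125 CPM in untreated libraries, and Cd68 had 0.753 to 1.86 CPM in OMX and 0 to 0.218 CPM in untreated libraries. In Gracie, CD68 had 0.811 to 4.79 CPM in OMX and 0.763 to 4.37 CPM in untreated libraries, and CSF1R reached at most 1.54 CPM. The 4 endothelial markers summed to 4.92 to 11.3 CPM in OMX and 1.39 to 3.24 CPM in untreated DLM8 libraries. Among them Cdh5 had 1.38, 3.39 and 5.07 CPM in OMX and 0 in all untreated libraries (adjusted p = 0.000727 by edgeR). Its row passed the filter on low counts through the OMX libraries only. The endothelial markers summed to 34.0 to 82.3 CPM in OMX and 16.0 to 81.9 CPM in untreated Gracie libraries. Epithelial markers summed to at most 1.28 CPM in any library. The part of these markers' cells in the results below was not tested.

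In DLM8 cells the translation factor rows were mostly lower after OMX. Of the 64 rows that passed the filter on low counts, 24 were lower at an adjusted p under 0.05, 1 was higher and 39 were not called by edgeR. Of all 17109 genes tested in DLM8, 15.9% were lower and 19.4% higher by the same rule. The median log2 fold change (OMX against untreated) of the 64 rows was -0.51, with 53 of them below 0. Over all genes tested the median was 0.02 and 49.2% were below 0. All 3 OMX libraries lay below all 3 untreated libraries in 30 of the 64, where 23.4% of all genes did so, and above them in 3, where 25.6% of all genes did so. Together the 87 rows took 0.412%, 0.372% and 0.330% of the counts in the OMX libraries, against 0.540%, 0.501% and 0.479% in the untreated libraries. Counts are shares of a library, and in bulk cultures fewer cells of a type and less RNA per cell cannot be told apart.

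In Gracie cells few factor rows were called. Of the 53 rows that passed, 4 were lower, 2 were higher and 47 were not called. Of the 10423 genes tested in Gracie, 8.5% were lower and 12.2% higher. The median log2 fold change of the 53 rows was -0.14, with 35 below 0. That of all genes tested was -0.02, with 51.4% below 0. OMX libraries lay below the untreated ones in 10 of the 53, where 18.9% of all genes did so, and above them in 9, where 20.9% did so. The 56 rows took 1.05% to 1.24% of the counts in OMX libraries and 1.21% to 1.39% in untreated libraries, and these ranges overlapped.

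**Figure D1:**
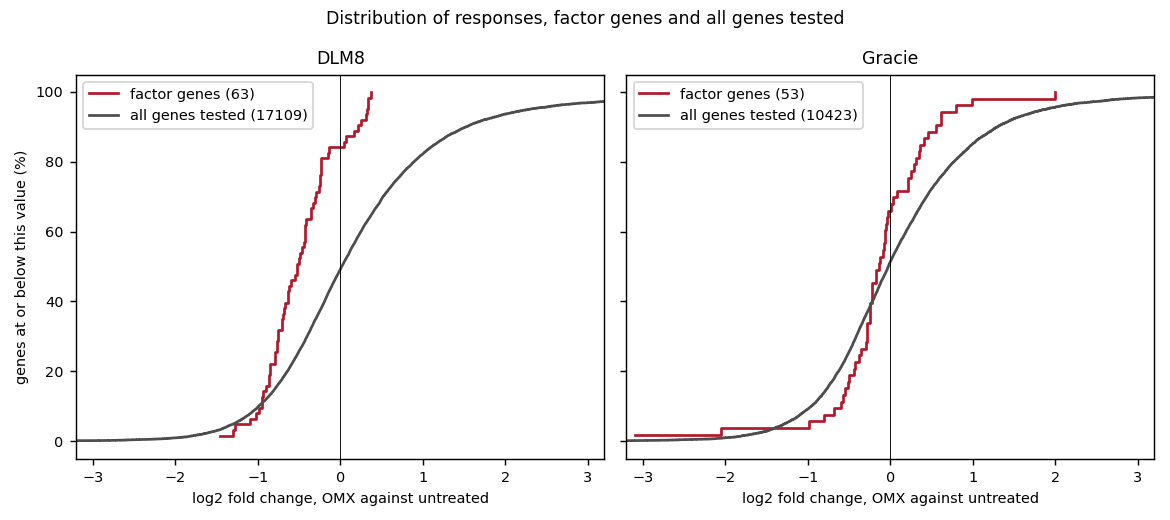
Share of genes (y axis, %) at or below each log2 fold change, OMX against untreated (x axis), for the factor genes with a known role (red) and all genes tested (grey) in DLM8 (left) and Gracie (right). In DLM8 the red curve runs left of the grey one over most of its course, with medians of -0.53 and 0.02, while in Gracie the medians are -0.14 and -0.02.

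Not every row could be tested. In DLM8, 23 rows did not pass the filter. They were Eif4ebp3 with 4 counts over the 6 libraries, Eif2s3y with 28, Eif4a3l1, Eif4a3l2, Eif4e1b and Eef1a2 with 0, and 17 rows without a known role. The 1 row called higher, Eif1ad10, is one of the numbered Eif1ad copies and held 102 counts in all. It had 3.94, 3.57 and 1.55 CPM in OMX libraries, against 0.740, 0 and 0.116 CPM in untreated libraries, and it passed the filter through its OMX libraries only. Its log2 fold change, written here and below as value ± SE, was 3.27 ± 0.86 and was 5.44 without untreated library 1. In Gracie, EIF4E1B had 0 counts, EIF4E3 26 and EIF5A2 49, and none of these passed.

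**Figure D2:**
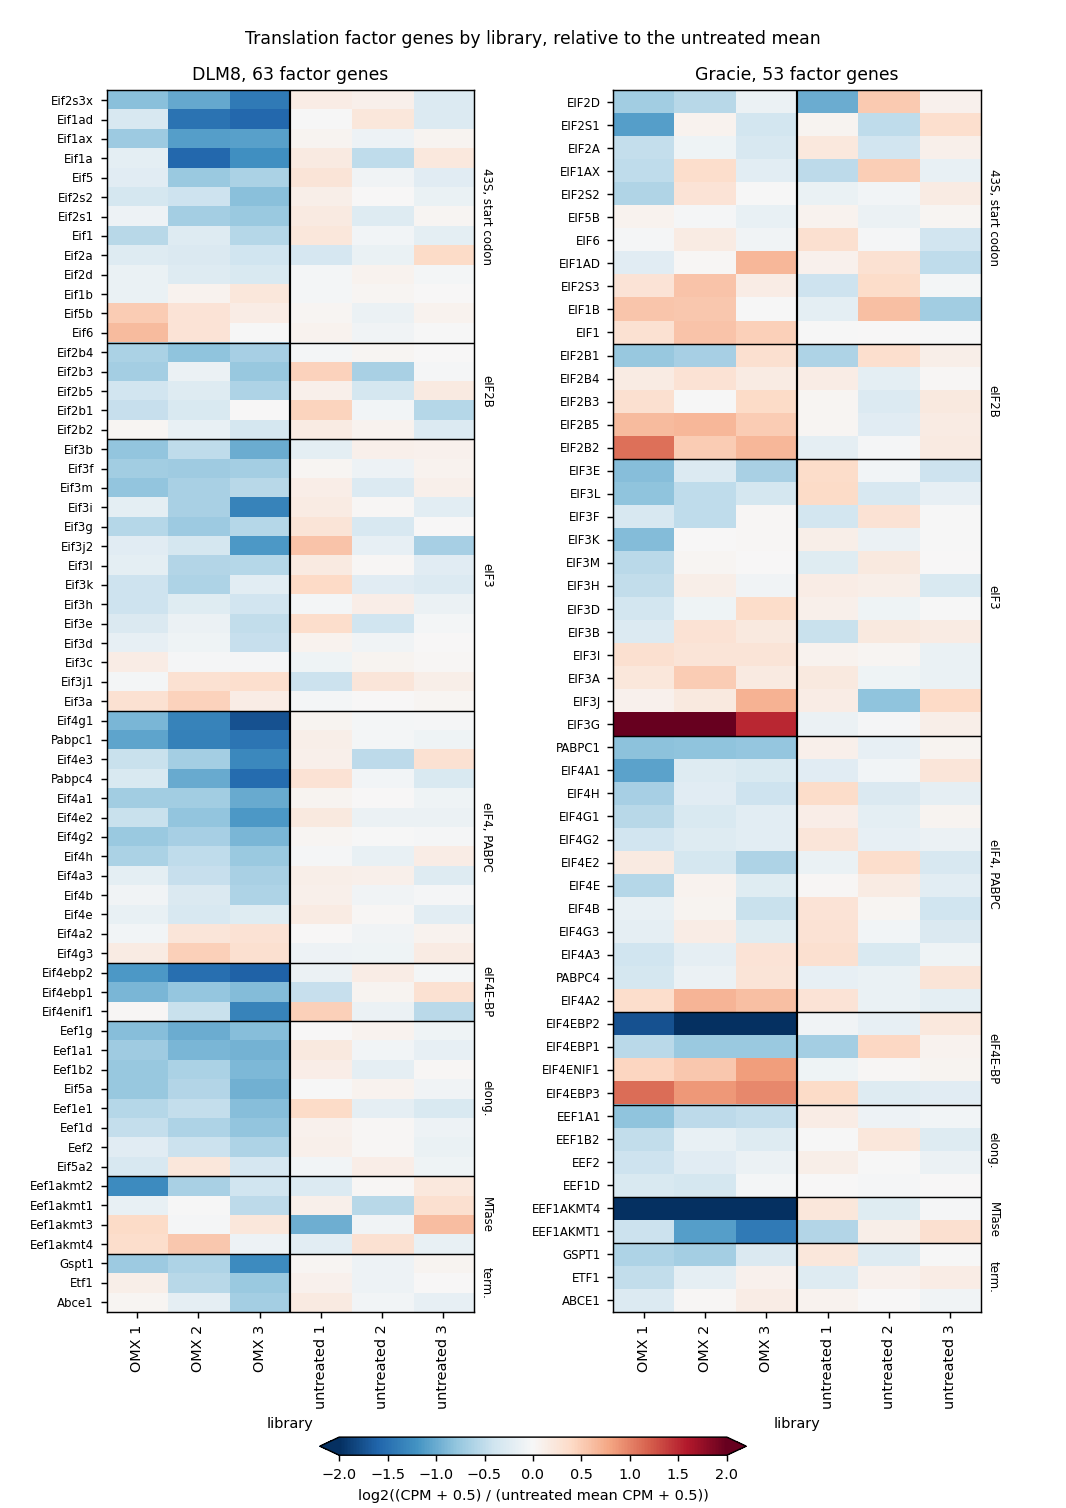
Each row is a factor gene with a known role that passed the filter, ordered by role and by log2 fold change, and each column is a library, OMX left of untreated. Colour gives log2 of (CPM + 0.5) over the untreated mean (blue lower, red higher). Most rows of the DLM8 eIF4 and elongation factors are blue in the 3 OMX libraries, and in Gracie EIF3G is the deepest red row and EIF4EBP2 and EEF1AKMT4 the deepest blue.

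Of the rows named with the factors that assemble the small subunit with initiator tRNA and find the start codon, 13 passed in DLM8. Of these 3 were lower (23.1%, beside 15.9% of all genes) and 10 were not called, with a median log2 fold change of -0.49. Without OMX library 1, 7 were lower. Eif2s3x, the X-linked gene of the eIF2 subunit that binds initiator tRNA, had 18.5, 16.2 and 12.2 CPM in OMX libraries 1 to 3, against 37.2, 35.8 and 27.6 CPM in untreated libraries 1 to 3. The groups did not overlap, and the row was 2.14-fold lower (log2 fold change -1.10 ± 0.21, adjusted p = 0.00177). Eif1ax, one gene for eIF1A, which helps the subunit scan, had 12.4, 9.41 and 9.52 CPM with OMX and 21.5, 19.2 and 21.5 CPM untreated, again without overlap (log2 fold change -0.99 ± 0.21, adjusted p = 0.00353). Its near-identical autosomal copy Eif1a, with which reads may be shared, was not called (log2 fold change -0.95 ± 0.41, adjusted p = 0.0958). Without OMX library 1 its log2 fold change was -1.55 and the row was called (adjusted p = 0.00658), as it was without the filter on low counts (adjusted p = 0.0474). Eif1ad, named with this group, was the other row called lower, at a log2 fold change of -1.02 ± 0.32 (adjusted p = 0.0244). OMX library 1 stood at 21.4 CPM beside 9.31 and 8.69 CPM in the other OMX libraries. Without that library the log2 fold change of Eif1ad was -1.58, and without OMX library 2 or 3 or untreated library 1 or 2 the call was lost (adjusted p 0.0522 to 0.101). Banf1 faces Eif1ad on the other strand with 10.6 times its counts and fell too (log2 fold change -0.68), and the part of Banf1 reads in the Eif1ad row was not tested.

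Eif2s1 encodes the eIF2 subunit whose phosphorylation by stress kinases lowers initiation. It had 22.2, 14.8 and 14.2 CPM in OMX DLM8 libraries and 27.3, 20.1 and 24.7 CPM in untreated ones, where OMX library 1 overlapped the untreated range and the row was not called (log2 fold change -0.49 ± 0.23, adjusted p = 0.113). Without that library its log2 fold change was -0.75 and it was called (adjusted p = 0.0128). Eif1, which guards the choice of start codon, had 30.7, 37.8 and 30.4 CPM with OMX and 52.9, 43.5 and 39.6 CPM untreated (adjusted p = 0.0625), and it was called lower with upper-quartile factors (adjusted p = 0.0371). Eif5b, the GTPase of subunit joining, went the other way without a call, with 399.8, 341 and 313 CPM in OMX libraries, all above the 289, 259 and 296 CPM of untreated libraries (log2 fold change 0.32 ± 0.12, adjusted p = 0.0642). It was called higher when libraries were scaled by library size alone (adjusted p = 0.0132) and with halved counts (adjusted p = 0.0476).

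In Gracie 0 of the 11 rows named with these factors that passed were called by edgeR and 0 by DESeq2, and 1 had an unadjusted p under 0.05. That row was EIF1, with 228, 274 and 257 CPM in OMX libraries, above 185, 185 and 185 CPM in untreated libraries (log2 fold change 0.45 ± 0.18, adjusted p = 0.0948). EIF2S1 had 21.1, 48.2 and 35.3 CPM with OMX and 47.7, 32.0 and 57.6 CPM untreated, and EIF2S3 had 96.5, 118 and 88.6 CPM with OMX and 59.3, 102 and 77.1 CPM untreated. Both pairs of groups overlapped, with log2 fold changes of -0.38 ± 0.32 and 0.35 ± 0.24.

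eIF2B is the exchange factor that reloads eIF2 with GTP and is the target of the integrated stress response. Of its 5 subunits, all of which passed, 1 was lower in DLM8 (20%, beside 15.9% of all genes). Eif2b4 had 78.6, 69.1 and 77.0 CPM in OMX libraries and 118, 124 and 123 CPM in untreated libraries, without overlap (log2 fold change -0.70 ± 0.13, adjusted p = 0.00141). Snx17, on the other strand with 0.511 times the counts of Eif2b4, was higher in the same libraries (log2 fold change 0.73), so the pair moved in opposite directions. The catalytic subunit Eif2b5 had 12.8, 13.9 and 10.8 CPM with OMX and 18.1, 13.1 and 19.2 CPM untreated, which overlapped (adjusted p = 0.170).

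In Gracie 0 of the 5 eIF2B subunits were called by edgeR or by DESeq2, and 2 had an unadjusted p under 0.05. EIF2B5 had 41.3, 41.9 and 37.6 CPM in OMX libraries and 27.0, 22.4 and 29.8 CPM in untreated libraries (log2 fold change 0.61 ± 0.26, adjusted p = 0.116). EIF2B2 had 33.6, 22.1 and 24.7 CPM with OMX and 13.5, 15.0 and 17.6 CPM untreated (log2 fold change 0.80 ± 0.33, adjusted p = 0.102). EIF2B4 had 64.8, 70.0 and 64.6 CPM with OMX and 63.6, 50.1 and 58.8 CPM untreated (log2 fold change 0.21 ± 0.22, adjusted p = 0.535). In these 3 of the 5 subunits every OMX library lay above every untreated library, as it did in 20.9% of all Gracie genes tested.

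eIF3 is the large complex that holds the small subunit and its partners together. In DLM8, 4 of the 14 eIF3 rows that passed were lower (28.6%, beside 15.9% of all genes) and 10 were not called. Their median log2 fold change was -0.44. Eif3b, a core subunit, had 42.9, 51.9 and 37.0 CPM in OMX libraries and 64.4, 79.5 and 78.6 CPM in untreated libraries. Eif3f had 27.2, 26.9 and 27.5 CPM with OMX and 45.4, 41.3 and 46.5 CPM untreated. Neither gene overlapped between groups, and they were 1.69-fold and 1.63-fold lower (log2 fold changes -0.75 ± 0.17 and -0.71 ± 0.16, adjusted p = 0.00474 and 0.00432). Eif3g had 23.6, 21.1 and 23.6 CPM with OMX and 42.0, 28.0 and 35.4 CPM untreated, without overlap (log2 fold change -0.63 ± 0.19, adjusted p = 0.0236). Eif3m was also called (log2 fold change -0.70 ± 0.26, adjusted p = 0.0493). Both calls were lost when some single libraries were left out. The log2 fold change then ran from -0.78 to -0.49 for Eif3g and from -0.85 to -0.64 for Eif3m. Eif3m was also not called by DESeq2 (adjusted p = 0.0534), without the filter on low counts (adjusted p = 0.0908) or with a replicate block (adjusted p = 0.0503). That of Eif3g was lost without OMX library 2 or untreated library 1 or 3 (adjusted p 0.0621 to 0.0938), and that of Eif3m without any library but untreated library 2 (adjusted p 0.0713 to 0.125). Eif3a, the largest subunit and scaffold of the complex, was not called, with 97.7, 109.7 and 88.2 CPM in OMX libraries above 77.1, 79.5 and 80.9 CPM in untreated ones (log2 fold change 0.32 ± 0.14, adjusted p = 0.0949). Gm17638 faces Eif3d with 62.8 times its counts and had a log2 fold change of 0.14, beside -0.23 ± 0.16 for Eif3d, and neither was called.

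Of the 12 eIF3 rows that passed in Gracie, 1 was called, and it was higher (8.33%, beside 12.2% of all genes). EIF3G, an RNA-binding subunit, had 3025, 2522 and 1730.2 CPM in OMX libraries 1 to 3, against 565, 603 and 663 CPM in untreated libraries 1 to 3. All OMX libraries were above all untreated ones, library 3 being the lowest of the OMX group, and the row was 3.97-fold higher (log2 fold change 1.99 ± 0.21, adjusted p = 2.94e-05). The row held 25999 counts over the 6 libraries. Genes on the other strand were not analysed for dog. EIF3L, next in p among the eIF3 rows, had 45.0, 55.1 and 61.3 CPM with OMX and 103, 63.3 and 70.2 CPM untreated, without overlap and without a call (log2 fold change -0.55 ± 0.25, adjusted p = 0.137).

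Genes of the cap-binding complex and the poly(A)-binding proteins were often lower in DLM8. Of 13 that passed, 7 were lower (53.8%, beside 15.9% of all genes) and 6 were not called, and the median log2 fold change was -0.77. Eif4g1, the scaffold that joins the cap-binding protein, the helicase and the tail-binding protein, had 112, 83.2 and 63.1 CPM in OMX libraries, against 219.6, 207 and 209 CPM in untreated libraries. Pabpc1, the main cytoplasmic poly(A)-binding protein, had 235, 191 and 176 CPM with OMX and 528, 475 and 459.8 CPM untreated. The groups lay far apart in both genes, which were 2.46-fold and 2.43-fold lower (log2 fold changes -1.30 ± 0.18 and -1.28 ± 0.13, adjusted p = 0.000187 and 1.80e-05). Eif4a1, the helicase that opens the mRNA start, had 124, 123 and 99.0 CPM with OMX and 208, 201 and 189 CPM untreated. These groups did not overlap either, and the row fell 1.73-fold (log2 fold change -0.79 ± 0.13, adjusted p = 0.000676).

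Eif4g2, which supports initiation without eIF4E, and Eif4h, a cofactor of the helicase, were lower in DLM8 at log2 fold changes of -0.77 ± 0.12 and -0.64 ± 0.16 (adjusted p = 0.000514 and 0.00885). Eif4e2, a cap-binding relative of eIF4E, was lower at -0.79 ± 0.24 (adjusted p = 0.0211), and its call was lost without OMX library 2 or 3 or untreated library 1 (adjusted p 0.0640 to 0.0742). Pabpc4 was called at a log2 fold change of -0.87 ± 0.28 (adjusted p = 0.0277) although OMX library 1, at 46.6 CPM, overlapped untreated library 3, at 46.3 CPM. Its call was lost without OMX library 2 or 3 or untreated library 1 or 2 (adjusted p 0.0659 to 0.102). Eif4e itself, the cap-binding protein, had 17.5, 15.6 and 16.4 CPM with OMX and 21.8, 19.9 and 16.9 CPM untreated, which overlapped (log2 fold change -0.24 ± 0.20, adjusted p = 0.365). The second helicase gene Eif4a2 had 60.6, 74.8 and 77.2 CPM with OMX and 63.4, 59.8 and 66.1 CPM untreated, and the second scaffold gene Eif4g3 had 33.2, 41.3 and 37.1 CPM with OMX and 27.6, 27.7 and 33.2 CPM untreated. Both had an OMX mean above the untreated mean and were not called (log2 fold changes 0.17 ± 0.15 and 0.34 ± 0.17). Scaled by library size alone, Eif4g3 was called higher (adjusted p = 0.0497).

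In Gracie 1 of the 12 rows of this group that passed was lower (8.33%, beside 8.5% of all genes). Of the 12, 11 had a log2 fold change below 0, with a median of -0.23. PABPC1 had 489.97, 493 and 508 CPM in OMX libraries and 929, 773 and 894 CPM in untreated libraries. The 3 OMX values were close together and well below the untreated ones, 1.74-fold lower (log2 fold change -0.80 ± 0.17, adjusted p = 0.00491). EIF4G1 had 314, 375 and 399.6 CPM with OMX and 505, 402 and 481 CPM untreated, and EIF4A1 had 203, 358 and 347 CPM with OMX and 368, 412 and 506 CPM untreated. In both, every OMX library was below every untreated one, with log2 fold changes of -0.35 ± 0.19 and -0.50 ± 0.23 that missed the threshold (adjusted p = 0.203 and 0.143). EIF4E overlapped, with 19.0, 29.9 and 24.1 CPM with OMX and 29.0, 32.0 and 24.4 CPM untreated. EIF4A2 was the 1 row of the group above 0, at 133, 167 and 159 CPM in OMX libraries and 126, 95.7 and 91.6 CPM in untreated libraries (log2 fold change 0.55 ± 0.21, adjusted p = 0.0789), and it was called higher without untreated library 1 (adjusted p = 0.0215).

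**Figure D3:**
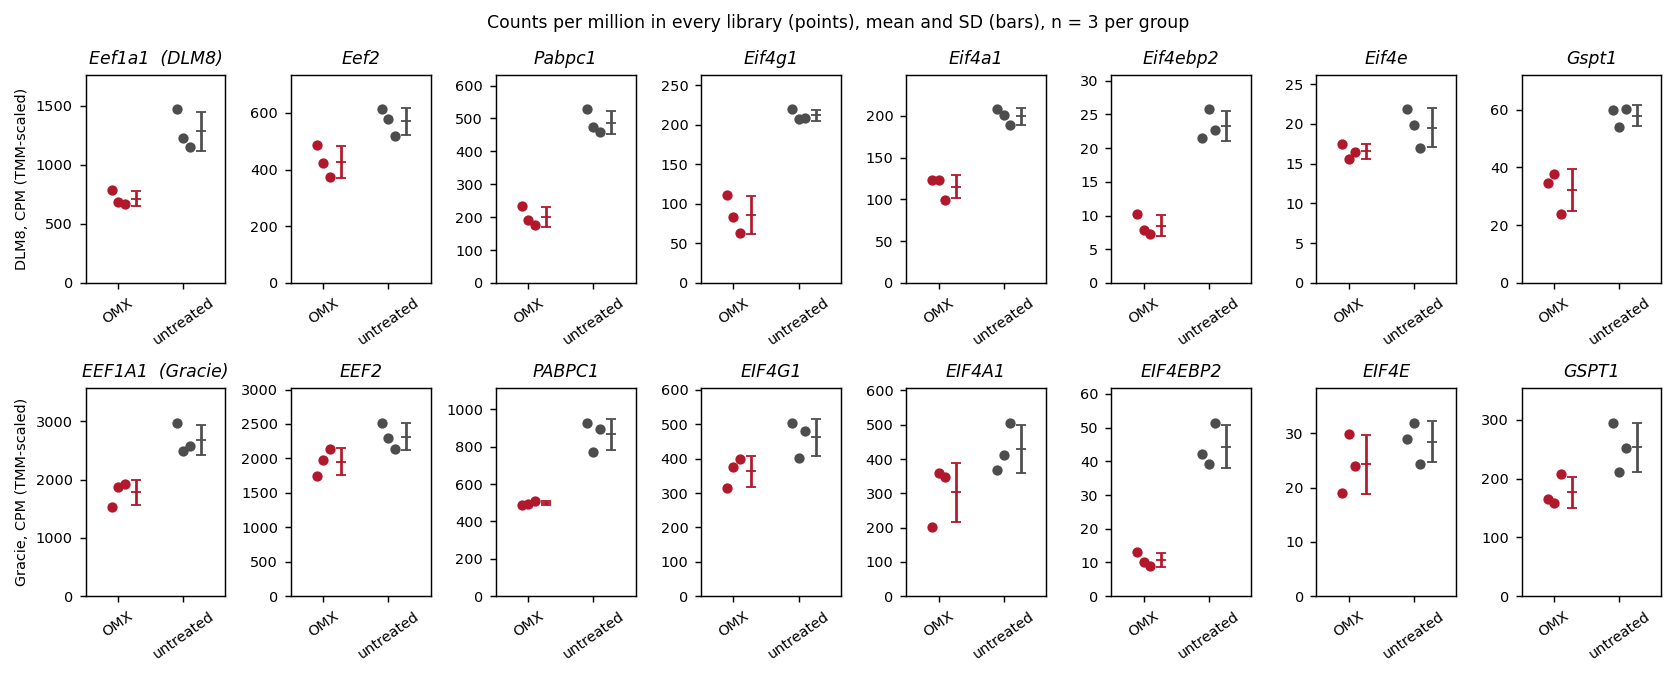
CPM on linear axes from 0 for 8 factor genes in DLM8 (top) and Gracie (bottom). Points are libraries 1 to 3 from left to right, OMX (red) left of untreated (grey), and bars are mean and SD (n = 3). OMX points lie below all untreated points in both lines for Eef1a1, Pabpc1, Eif4g1, Eif4a1, Eif4ebp2 and Gspt1, in DLM8 for Eef2, and in neither line for Eif4e.

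The eIF4E-binding proteins hold eIF4E away from eIF4G until mTORC1 phosphorylates them. Eif4ebp2 was lower in both lines, and in DLM8 it had the most negative log2 fold change of all the factor rows that passed. It had 10.2, 7.90 and 7.24 CPM in OMX DLM8 libraries and 21.5, 25.8 and 22.7 CPM in untreated ones, a 2.75-fold fall (log2 fold change -1.46 ± 0.22, adjusted p = 0.000342). In Gracie EIF4EBP2 had 13.0, 10.2 and 8.99 CPM with OMX and 42.2, 39.3 and 51.5 CPM untreated, a 4.15-fold fall (log2 fold change -2.05 ± 0.31, adjusted p = 0.000431). In each line the highest OMX library was below the lowest untreated one. Eif4ebp1 fell in DLM8, with 22.6, 25.0 and 23.5 CPM in OMX libraries and 31.4, 45.0 and 53.5 CPM in untreated libraries (log2 fold change -0.87 ± 0.21, adjusted p = 0.00619). In Gracie EIF4EBP1 had 20.7, 18.0 and 18.0 CPM with OMX and 18.7, 40.5 and 31.7 CPM untreated, which overlapped through untreated library 1 (log2 fold change -0.68 ± 0.34, adjusted p = 0.169). Without that library EIF4EBP1 was called lower (adjusted p = 0.0399). EIF4EBP3 rose in Gracie, with 141, 118 and 127 CPM in OMX libraries above 84.3, 54.0 and 54.9 CPM in untreated ones (log2 fold change 0.99 ± 0.23, adjusted p = 0.00793). The eIF4E transporter EIF4ENIF1, named with this group, was not called in DLM8 (log2 fold change -0.50 ± 0.35) or in Gracie (log2 fold change 0.62 ± 0.24, adjusted p = 0.0775).

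Most elongation factors fell in DLM8. Of 8 rows named with this group that passed, 6 were lower (75%, beside 15.9% of all genes) and the median log2 fold change was -0.72. All 8 values were below 0, except that of Eif5a2 with library size as the only scaling (0.0092). Eef1a1, which delivers aminoacyl-tRNA, had 785, 681 and 669 CPM in OMX libraries, against 1469.99, 1229 and 1149 CPM in untreated libraries. Eef1g, a subunit of its exchange factor, had 91.7, 83.3 and 91.9 CPM with OMX and 167, 175 and 156 CPM untreated. Both rows were clearly apart between groups, 1.80-fold and 1.87-fold lower (log2 fold changes -0.85 ± 0.12 and -0.90 ± 0.13, adjusted p = 0.000175 and 0.000183). The other exchange factor subunits Eef1b2 and Eef1d were lower at log2 fold changes of -0.77 ± 0.17 and -0.63 ± 0.16 (adjusted p = 0.00352 and 0.0101). Ndufs1, which faces Eef1b2 with 0.597 times its counts, was not called (log2 fold change 0.09). Eif5a, the hypusine-bearing factor that eases stalled elongation, had 108, 122 and 94.4 CPM with OMX and 182, 193 and 175 CPM untreated, without overlap (log2 fold change -0.76 ± 0.13, adjusted p = 0.00100).

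Eef2, the translocase, fell by less in DLM8. It had 486, 425 and 373 CPM in OMX libraries and 613, 580.03 and 518 CPM in untreated libraries, a 1.33-fold fall without overlap (log2 fold change -0.41 ± 0.12, adjusted p = 0.0205). This call was lost without OMX library 2 or 3 or untreated library 1 or 2 (adjusted p 0.0575 to 0.0721), with library size as the only scaling (adjusted p = 0.113), and in the fit of genes that face no annotated gene (adjusted p = 0.0885). The remaining rows named with this group, Eef1e1 and Eif5a2, were not called (log2 fold changes -0.68 ± 0.33 and -0.13 ± 0.34). Reads of Eef1a1 and other factors with many processed pseudogenes may be split between copies, and the counting rule for such reads is not given in the sources used here.

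In Gracie 1 of the 4 elongation factor rows that passed was lower (25%, beside 8.5% of all genes), and all 4 were below 0. EEF1A1 had 1534, 1872 and 1932 CPM in OMX libraries and 2977, 2491 and 2581 CPM in untreated libraries, a 1.51-fold fall without overlap (log2 fold change -0.59 ± 0.17, adjusted p = 0.0224). The call was lost without OMX library 1 or 2 or untreated library 2 (adjusted p 0.0696 to 0.0974). EEF2 had 1742, 1975 and 2132 CPM with OMX and 2520.3, 2292 and 2129.9 CPM untreated, where OMX library 3 met untreated library 3 (log2 fold change -0.25 ± 0.16, adjusted p = 0.306). EIF5, EIF5A, EIF3C and EEF1G were not analysed here in Gracie.

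Among the enzymes that methylate eEF1A on lysine, EEF1AKMT4 fell in Gracie, with 1.62, 0.599 and 1.28 CPM in OMX libraries and 11.9, 8.49 and 9.92 CPM in untreated libraries, an 8.56-fold fall (log2 fold change -3.10 ± 0.69, adjusted p = 0.00603). No OMX library exceeded 1.62 CPM and no untreated library was under 8.49 CPM. The row held 88 counts in all, with 4, 2 and 4 in the OMX libraries, and passed the filter through its untreated libraries only. EEF1AKMT1 had 9.32, 5.69 and 4.50 CPM with OMX and 8.35, 13.9 and 16.0 CPM untreated in Gracie, which overlapped (adjusted p = 0.187). In DLM8 0 of the 4 enzymes were called by edgeR or DESeq2, and 0 had an unadjusted p under 0.05. Eef1akmt4 had 2.17, 2.54 and 1.45 CPM in OMX and 1.29, 2.07 and 1.39 CPM in untreated DLM8 libraries, overlapping and at 108 counts in all, while Alg3, which faces it with 29.5 times its counts, fell (log2 fold change -0.68). Eef1akmt2 had 0.689, 1.32 and 1.66 CPM with OMX and 1.85, 2.40 and 2.78 CPM untreated (log2 fold change -0.93 ± 0.55, adjusted p = 0.212).

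Of the 3 termination and recycling factors, 1 was lower in DLM8 (33.3%, beside 15.9% of all genes). Gspt1, the release factor GTPase eRF3, had 34.6, 37.6 and 23.9 CPM in OMX libraries and 59.8, 53.8 and 60.1 CPM in untreated libraries, without overlap and 1.81-fold lower (log2 fold change -0.85 ± 0.19, adjusted p = 0.00400). The antisense gene 2610020C07Rik faces it with 26.3 times its counts and fell as well (log2 fold change -0.57), and its part in the Gspt1 row was not tested. Etf1, the stop-codon reader eRF1, had 25.2, 15.7 and 13.7 CPM with OMX and 24.8, 21.5 and 23.4 CPM untreated, which overlapped through OMX library 1 (log2 fold change -0.35 ± 0.24, adjusted p = 0.275). Without that library its log2 fold change was -0.68 and it was called lower (adjusted p = 0.0167). In Gracie 0 of the 3 were called by edgeR or DESeq2 and 1 had an unadjusted p under 0.05. That was GSPT1, with 165, 158 and 207 CPM in OMX libraries, all below 295, 211 and 253 CPM in untreated libraries (log2 fold change -0.52 ± 0.20, adjusted p = 0.0886), and it was called lower by library size alone (adjusted p = 0.0472). ETF1 overlapped, with 50.7, 63.5 and 76.1 CPM with OMX and 60.1, 76.0 and 79.4 CPM untreated.

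**Figure D4:**
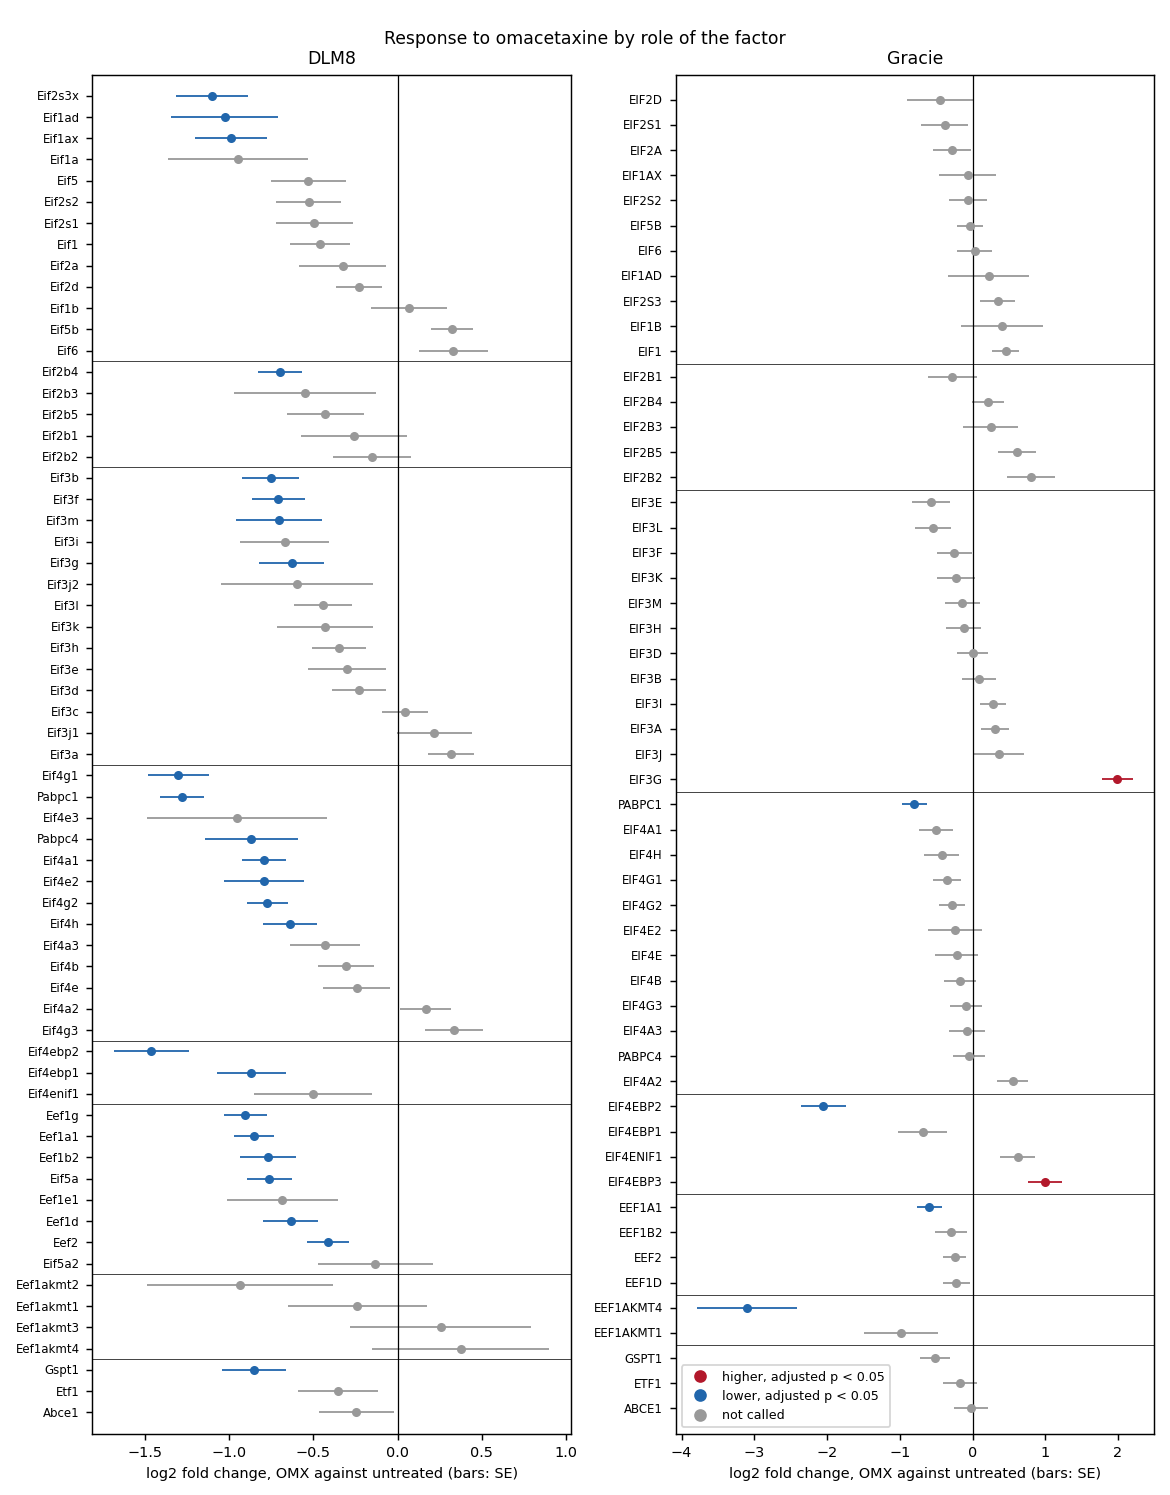
Log2 fold change (x axis, OMX against untreated, bars SE, n = 3 per group) of each factor gene with a known role in DLM8 (left) and Gracie (right), grouped by role as in the heat map. Blue marks a lower and red a higher call at adjusted p under 0.05. DLM8 shows 24 blue points spread over 7 of the 8 roles, and Gracie 4 blue and 2 red.

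Members called lower in DLM8 included rows with and without a facing gene. Of all genes tested, 15.9% were lower and 49.2% had a log2 fold change below 0. Of the 49 tested members that face no annotated gene, 19 were lower (38.8%) and 45 were below 0, with a median of -0.55. Of the 15 that face one, 5 were lower (33.3%) and 8 were below 0, with a median of -0.23. A fit restricted to genes that face no annotated gene called 18 members lower and 1 higher. The share of all genes called in that fit is not given here.

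Members with known TOP mRNAs were described as a group. In DLM8, 7 of the 10 on the list were lower (70%), beside 15.9% of all genes. All 10 were below 0, with a median log2 fold change of -0.67. Outside the list, 17 of 54 were lower (31.5%), with a median of -0.50. In Gracie 2 of the 9 TOP members that passed were lower, EEF1A1 and PABPC1 (22.2%, beside 8.5% of all genes). All 9 were below 0, and the median was -0.25, beside a median of -0.06 for the other 44. The groups of genes were not tested against each other. Eef1a1, Eef1b2, Eef1d, Eef1g, Eef2, Eif3f and Pabpc1 were the 7 lower in DLM8, and Eif3e, Eif3h and Eif4b were not called there.

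Promoters of the mouse members were read for the E-box CACGTG, the letters bound by MYC and MAX, which are the same on both strands. The windows ran from 250 bases before to 50 bases after the start, from RefSeq on GRCm38.p6. Of the 50 members with a promoter entry, 12 (24%) held the motif, as did 8.09% of 27025 genes with an entry, tested or not. Of the genes tested in DLM8 that have an entry, 1123 held it and 8606 did not. A gene with more than 1 start was counted if any of its windows held the motif. Among tested members, 6 of 12 with the motif were lower in DLM8 (50%) and 13 of 35 without it (37.1%), while of all genes tested 18.9% with it and 15.8% without it were lower. The median log2 fold change went the other way among members, at -0.42 with the motif and -0.50 without it, while over all genes it was -0.13 with the motif and -0.03 without it. The stretches below are upstream parts of the promoters of those 6 lower members and of Eif4e, which has the motif and was not called. Capitals mark the E-box, and each is written along the gene's own strand.
Eif4g1, chr16:20672647-20672706, plus strand: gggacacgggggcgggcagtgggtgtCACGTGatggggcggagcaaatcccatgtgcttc
Eif4a1, chr11:69672579-69672638, minus strand: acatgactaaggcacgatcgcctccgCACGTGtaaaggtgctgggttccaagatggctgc
Eif4h, chr5:134639472-134639531, minus strand: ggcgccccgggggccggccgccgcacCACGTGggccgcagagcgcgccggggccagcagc
Eif3f, chr7:108934321-108934380, plus strand: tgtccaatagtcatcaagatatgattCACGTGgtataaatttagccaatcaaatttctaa
Eef2, chr10:81176562-81176621, plus strand: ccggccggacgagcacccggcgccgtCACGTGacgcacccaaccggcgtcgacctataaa
Eif5a, chr11:69921427-69921486, minus strand: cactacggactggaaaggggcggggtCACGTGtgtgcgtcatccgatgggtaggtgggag
Eif4e, chr3:138527178-138527237, plus strand: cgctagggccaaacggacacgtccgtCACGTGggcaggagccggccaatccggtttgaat
The first base of the motif lay at -54 from the start in Eif4g1, -189 in Eif4a1, -96 in Eif4h, -68 in Eif3f, -43 in Eef2, -64 in Eif4e and -74 or -185 in Eif5a, which has more than 1 RefSeq start. A match of letters is not a binding site, and binding was not measured. The cAMP response element TGACGTCA, also the same on both strands, was found in 2 of the 50, Abce1 and Eef2 (4%), beside 2.03% of all genes.

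Responses in the lines were set side by side for the 50 members tested in both. Of these, 3 were lower in both lines, Eef1a1, Pabpc1 and Eif4ebp2. A further 17 were lower in DLM8 and not called in Gracie, 1 was lower in Gracie alone, 1 was lower in DLM8 and higher in Gracie, and 28 were not called in either. Shares of all shared genes with these combinations of calls are not given here. Nothing particular to the members is therefore read from these counts. A call in 1 line and not in the other does not show a difference, so the difference was tested itself. It was called in 5 of the 50, where 11.9% of the 7566 shared genes were called, 6.0% with a positive and 5.86% with a negative difference. EIF3G differed by -2.62 on the log2 scale (DLM8 minus Gracie, SE 0.29, adjusted p = 1.34e-05), being lower in DLM8 and higher in Gracie. EEF1AKMT4 differed by 3.50 (SE 0.80, adjusted p = 0.00693), called lower in Gracie and not called in DLM8. Its Gracie row passed the filter through the untreated libraries only. EIF4G1 differed by -0.95 (adjusted p = 0.0349), EIF1 by -0.91 (adjusted p = 0.0282) and EIF2B4 by -0.91 (adjusted p = 0.0269), all more negative in DLM8.

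The difference in EIF3G kept its call whichever of the 12 libraries was left out. That in EEF1AKMT4 did too, but its Gracie row held 4, 2 and 4 counts in OMX libraries. Because that row passed the filter through its untreated libraries only, its kept call is not read as support. The difference in EIF4G1 lost its call without any of 8 of the 12 libraries (adjusted p 0.0611 to 0.0885), that in EIF2B4 without any of 5 (adjusted p 0.0548 to 0.0675) and that in EIF1 without any of 4 (adjusted p 0.0540 to 0.0758). The count of differences was 9 without DLM8 OMX library 1. It was 3 without DLM8 OMX library 2 or 3 or DLM8 untreated library 1 or 3, and 2 without Gracie OMX library 2 or untreated library 2. The share of all shared genes called in each of these fits is not given here. The other members tested, among them EIF4EBP2, PABPC1 and EEF2, were not called different, and a missed threshold does not show that the lines responded alike.

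**Figure D5:**
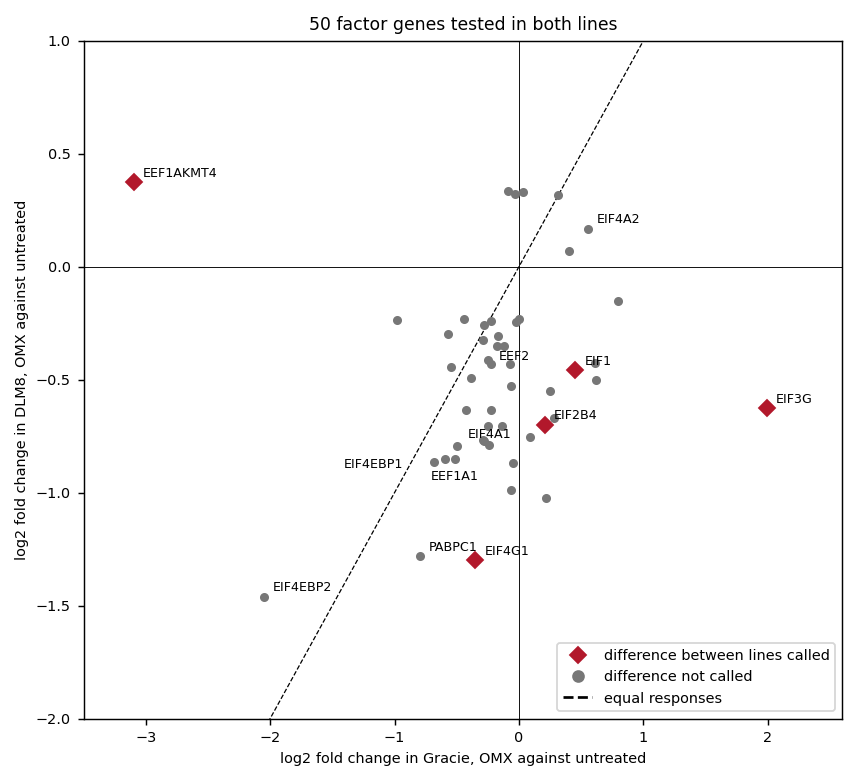
Log2 fold change in DLM8 (y axis) against that in Gracie (x axis) for the 50 factor genes tested in both lines. Red diamonds mark the 5 genes whose responses differed between lines, and the dashed line marks equal responses. EIF3G and EEF1AKMT4 lie far from it, and most grey points lie below 0 on the y axis.

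Regulators of these factors were read from a list of 56 genes in 6 groups. The counts below stand beside 15.9% lower and 19.4% higher of all genes in DLM8 and 8.5% lower and 12.2% higher in Gracie, and nothing particular to a group is read from them. The median log2 fold change was -0.30 in DLM8 and -0.01 in Gracie for the initiation partners, and 0.04 in DLM8 and 0.35 in Gracie for the enzymes of eIF5A and eEF2. It was 0.30 in DLM8 and 0.06 in Gracie for rescue factors, and -0.30 in DLM8 and 0.13 in Gracie for mitochondrial factors. The kinases and phosphatases of eIF2 and eEF2 gave 1 lower and 1 higher of 7 tested in DLM8 (median log2 fold change -0.18), and 1 higher of 6 in Gracie (median -0.47). PPP1R15A (GADD34), which targets the phosphatase of eIF2, rose in both lines. It had 15.0, 8.66 and 7.86 CPM in OMX DLM8 libraries and 5.73, 4.80 and 2.78 CPM in untreated ones (log2 fold change 1.23 ± 0.36, adjusted p = 0.0176). In Gracie it had 75.8, 77.5 and 100.2 CPM with OMX and 20.7, 10.8 and 20.6 CPM untreated (log2 fold change 2.28 ± 0.29, adjusted p = 0.000133). Untreated levels were exceeded by every OMX library in each line, and the DLM8 call was lost without OMX library 1 (adjusted p = 0.0732) or untreated library 3 (adjusted p = 0.0704). Eif2ak1, the heme-regulated eIF2 kinase, was lower in DLM8 (log2 fold change -0.34 ± 0.11, adjusted p = 0.0247), and its call was lost without OMX library 2 or untreated library 1 or 2 (adjusted p 0.0563 to 0.0611).

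Of 13 genes of mTORC1 and MNK control, 3 were lower (23.1%) and 1 higher (7.69%) in DLM8, and 3 were lower (23.1%) in Gracie, with median log2 fold changes of -0.33 in DLM8 and -0.34 in Gracie. LARP1, the protein that holds TOP mRNAs, fell in both. It had 73.3, 47.9 and 29.9 CPM in OMX DLM8 libraries and 117, 111 and 108 CPM in untreated ones (log2 fold change -1.15 ± 0.25, adjusted p = 0.00373). In Gracie it had 68.9, 96.1 and 98.6 CPM with OMX and 259.7, 184 and 185 CPM untreated (log2 fold change -1.25 ± 0.23, adjusted p = 0.00160). No OMX library reached an untreated one in either line. DDIT4, an inhibitor of mTORC1, fell in Gracie, at 8.11, 2.99 and 5.14 CPM with OMX and 33.4, 25.5 and 14.5 CPM untreated (log2 fold change -2.19 ± 0.48, adjusted p = 0.00526), and MKNK2, a kinase of eIF4E, at a log2 fold change of -1.52 ± 0.46 (adjusted p = 0.0317). The MKNK2 call was lost without any library but untreated library 2 (adjusted p 0.0573 to 0.104). In DLM8 the other calls were Rheb and Rps6kb1, lower (log2 fold changes -0.90 ± 0.30 and -0.78 ± 0.26), and Mlst8, higher (0.87 ± 0.25). The Rheb call was lost without any library but OMX library 1 (adjusted p 0.0621 to 0.0965). That of Rps6kb1 was lost without OMX library 2 or 3 or untreated library 1 or 2 (adjusted p 0.0746 to 0.129), and that of Mlst8 without OMX library 3 or untreated library 2 or 3 (adjusted p 0.0605 to 0.0748).

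Among 10 initiation partners in DLM8, 3 were lower (30%), while in Gracie 0 of 8 were called by edgeR or DESeq2 and 2 had an unadjusted p under 0.05. Cyfip1, which ties eIF4E to FMRP, had 137, 121 and 133 CPM in OMX and 228, 235 and 233 CPM in untreated DLM8 libraries (log2 fold change -0.83 ± 0.12, adjusted p = 0.000211). Its groups lay apart in every library. Paip1, a partner of PABP, and Gigyf2, a partner of eIF4E2, were lower at -0.80 ± 0.28 and -0.71 ± 0.24, and both calls were lost without any library but OMX library 1 (adjusted p 0.0637 to 0.135 and 0.0507 to 0.109). Among the enzymes that modify eIF5A and eEF2, DHPS, which makes the hypusine of eIF5A, rose in Gracie, at 289, 244 and 262 CPM with OMX and 136, 119.6 and 130.5 CPM untreated (log2 fold change 1.04 ± 0.19, adjusted p = 0.00160), 1 of 7 tested. In DLM8 0 of 9 were called by edgeR, 1 by DESeq2, and 1 had an unadjusted p under 0.05. Of 7 ribosome rescue and selenocysteine factors in DLM8, Secisbp2 was higher (log2 fold change 0.96 ± 0.28, adjusted p = 0.0190), a call lost without OMX library 2 or untreated library 2 or 3 (adjusted p 0.0501 to 0.0806). In Gracie 0 of 5 were called by either tool and 0 had an unadjusted p under 0.05.

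The mitochondrial translation factors gave 2 lower and 1 higher of 9 tested in DLM8, and 1 lower of 8 in Gracie (12.5%). Gfm2, a recycling factor of mitochondrial ribosomes, had 129.5, 90.2 and 103 CPM in OMX libraries and 255, 169 and 165 CPM in untreated libraries of DLM8 (log2 fold change -0.87 ± 0.19, adjusted p = 0.00378). Mrrf, its partner in recycling, went the other way, with 65.6, 61.6 and 66.2 CPM with OMX and 40.8, 40.6 and 33.2 CPM untreated (log2 fold change 0.75 ± 0.15, adjusted p = 0.00256). Neither gene overlapped between groups. Mtif3, an initiation factor of mitochondria, was lower in both lines, at log2 fold changes of -0.46 ± 0.15 in DLM8 and -0.81 ± 0.20 in Gracie (adjusted p = 0.0336 and 0.0101). In DLM8 the value was -0.30 without OMX library 1, and the call was lost without OMX library 2 or untreated library 2 or 3 (adjusted p 0.0566 to 0.0823). In Gracie it was lost without OMX library 2 (adjusted p = 0.0813).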

How the data were processed

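The authors deposited whole-number counts per gene in a mouse table and a dog table, whose columns are the libraries. Per the labels' protocols, RNA was DNase-treated and poly(A)-selected, and libraries came from a Universal Plus mRNA-Seq (NuQuant) kit. Per the submitters' processing notes, STAR, Subread and featureCounts were used with mm39, GRCm39 and CanFam3.1. Versions, strand setting and pair handling are not given in the labels read here. Of the nonzero counts in a library, 67.7% to 73.7% were even, so reads are not independent molecules.

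Each line was fitted alone over its whole table in R 4.3.3 with edgeR 4.0.16: filterByExpr, TMM scaling, quasi-likelihood F-test, Benjamini-Hochberg adjustment over all genes tested, calls at an adjusted p under 0.05. The difference between lines was the interaction term over 7566 genes with the same symbol. CPM are TMM-scaled. SE is the absolute log2 fold change over the square root of F. Facing genes were found by overlap of exons on opposite strands within GENCODE M21, in which all 87 mouse members were matched. Its build differs from that of the counts, so it was joined to the mouse rows by gene identifier and not by position. Of all mouse rows, 51536 were matched. The others could not be looked up and were left out of the fit of genes that face no annotated gene. The fits were tested on simulated data. Samples were grouped by their labels and 0 columns were left unmapped.

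Members, role groups and lists were chosen with earlier results of these data known. Values in every library are given for EEF2, EEF1A1, EIF4E, EIF4A1, EIF4G1, EIF2S1, EIF5A, PABPC1 and the 2 members of each role with the smallest p in each line, for members that differ between lines, and for others chosen after their values were seen. Alternatives were library size alone, upper-quartile factors, DESeq2 1.42.0, no filter, halved counts, a replicate block, genes that face no annotated gene, and leaving out each library.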

Additional observations from a re-analysis of the deposited data

Results flagged for a closer look

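The response to OMX differed between DLM8 and Gracie in 5 factor genes of 50 tested by the edgeR interaction test, where 11.9% of 7566 shared genes were called different. EIF3G differed by -2.62 on the log2 scale (DLM8 minus Gracie), with log2 fold changes of -0.63 in DLM8 and 1.99 in Gracie, and the libraries of each line moved without overlap. EEF1AKMT4 differed by 3.50, with 0.37 in DLM8, where its 6 libraries held 108 counts, and -3.10 in Gracie. In Gracie its 6 libraries held 88 counts, and the row passed the filter through the untreated libraries only. EIF4G1 differed by -0.95, with -1.30 in DLM8 and -0.35 in Gracie, both lower in 3 of 3 OMX libraries. EIF1 differed by -0.91, with -0.46 in DLM8 and 0.45 in Gracie, neither called in its own line although the groups did not overlap in either. EIF2B4 differed by -0.91, with -0.70 in DLM8 and 0.21 in Gracie. The differences in EIF4G1, EIF1 and EIF2B4 lost their call by library size alone and without single libraries.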

How the results depend on the processing

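Of the named genes followed through the alternatives, Eif5a2 in DLM8, not called, changed sign under 1 of them, with a log2 fold change of 0.0092 by library size alone. With that scaling, the median of all genes moved to 0.16 in DLM8 and -0.14 in Gracie, and that of the members to -0.37 and -0.24. In DLM8 it called 18 members lower and 4 higher, losing Eef2, Eif1ad, Eif3g, Eif3m, Eif4e2 and Pabpc4 (adjusted p up to 0.113) and adding Eif3a, Eif4g3 and Eif5b as higher. It called 2 differences between lines, losing EIF1, EIF2B4 and EIF4G1 (adjusted p 0.131 to 0.145). In Gracie it called GSPT1 lower (adjusted p = 0.0472). DLM8 members called lower were 18 to 32 when a library was left out and 18 to 30 under the other alternatives. In Gracie 3 to 5 were lower and 2 to 3 higher under every alternative, and 4 and 2 without the 2 largest rows, an alternative chosen after seeing the data. Differences between lines numbered 2 to 9 when a library was left out and 7 under upper-quartile factors, DESeq2 and halved counts. Shares of all genes called under each alternative are not given here. Nothing particular to the members is therefore read from these counts.

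Replicate numbers were not shown to pair the libraries. Same-numbered deviations correlated at 0.20, 0.04 and 0.11 in DLM8 and 0.13, -0.02 and 0.18 in Gracie, and library 2 of neither line correlated best with its own number. With a replicate block, 30 members were lower and 2 higher in DLM8, 5 lower and 2 higher in Gracie, and 9 differed between lines. The block also called Eif1a, Eif2s1, Eif1, Eif5b and, in Gracie, EIF4A1 (adjusted p 0.0295 to 0.0494). Halved counts called 25 members lower in DLM8, and 4 lower and 2 higher in Gracie. Shares of all genes called with the block or with halved counts are not given here either. The dog libraries were shallower than the mouse ones, and a fit of the mouse libraries at dog depth was not run.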

Other observations

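Counts of related rows were set as a ratio in each library, for pairs chosen after their values were seen and therefore without a test. The ratio of the helicase genes EIF4A1 to EIF4A2 was 2.04, 1.64 and 1.28 in OMX DLM8 libraries, against 3.28, 3.36 and 2.86 in untreated ones. In Gracie it was 1.53, 2.14 and 2.18 with OMX and 2.91, 4.31 and 5.53 untreated. The ratio was lower in every OMX library of both lines, by -0.96 and -1.09 on the log2 scale. The ratio of the scaffold genes EIF4G1 to EIF4G3 was 3.36, 2.01 and 1.70 in OMX DLM8 libraries, against 7.97, 7.46 and 6.28 in untreated ones, a log2 difference of -1.67. In Gracie this ratio overlapped between groups, at 2.81, 2.67 and 3.72 with OMX and 3.26, 3.29 and 4.60 untreated. The ratio of PABPC1 to PABPC4 overlapped in DLM8, at 5.03, 6.74 and 9.06 with OMX and 7.48, 8.57 and 9.93 untreated, and was lower in all OMX libraries of Gracie, at 3.66, 3.15 and 2.49 with OMX and 6.08, 4.98 and 4.39 untreated. That of EIF4EBP2 to EIF4EBP1 also overlapped in DLM8, at 0.452, 0.316 and 0.308 with OMX and 0.682, 0.573 and 0.424 untreated, and did not in Gracie, at 0.627, 0.567 and 0.5 with OMX and 2.26, 0.971 and 1.63 untreated. That of Eif5a to Eif5a2, read in DLM8, was 28.2, 21.0 and 24.7 with OMX and 38.5, 35.4 and 37.8 untreated. The ratio of the elongation factors EEF1A1 and EEF2, which are not copies of each other, was 1.62, 1.60 and 1.79 in OMX DLM8 libraries and 2.40, 2.12 and 2.22 in untreated ones, and 0.881, 0.948 and 0.906 with OMX and 1.18, 1.09 and 1.21 untreated in Gracie. It was lower in all OMX libraries of both lines. Counts are not scaled for gene length, so a ratio compares libraries and not the amounts of the proteins. The strand setting of the counting is not given, so a ratio is one of rows and not of mRNAs.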
